A study of Mus musculus with 12 samples.

Results

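Adipoq, Cfd, Plin1, Cidec, Retn, Lep and Ucp1, genes whose products are made chiefly by fat cells, were followed through 12 libraries of mouse heart RNA as a measure of the fat carried in each sample. They were taken by gene symbol, and all 7 were found among the 55401 rows of the count table, 1 row each. The hearts came from C57BL/6J mice of wild-type genotype and were sequenced as bulk tissue, with 3 libraries from exercised females, 3 from sedentary females, 3 from exercised males and 3 from sedentary males. Exercise was treadmill running at 1 km/h over 6 weeks, in sessions of 45 min on 5 days of each week. The sedentary animals, matched for age, spent these weeks in their cages. How the hearts were trimmed, and whether the fat around them was removed, is not given in the sources used here.

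White adipocytes hold 1 large lipid droplet and secrete hormones, called adipokines, into the blood. Adipoq encodes adiponectin, Lep leptin, Retn resistin and Cfd adipsin, the complement protease factor D. Plin1 coats the droplet and holds back its breakdown until hormones call for fatty acids, and Cidec passes lipid between droplets so that they fuse. Ucp1 lets protons leak across the inner mitochondrial membrane and is the defining gene of brown fat. Fat depots lie on and around the mammalian heart, in the pericardium, along the groove between atria and ventricles and around the great vessels. Heart muscle itself stores and burns lipid with a partly different set of genes, so adipocyte genes that heart muscle also uses say little about fat.

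The promoters of 4 of the genes are shown because they represent the adipokines and the droplet proteins whose counts went together or, for Lep, stayed near 0. The sequences are those of RefSeq on GRCm38.p6, from 250 bases before to 50 bases after the start of the gene, and all 7 symbols matched. They cover chr16:23146286-23146585 on the plus strand for Adipoq, chr10:79890603-79890902 on the plus strand for Cfd, chr7:79732727-79733026 on the minus strand for Plin1 and chr6:29059971-29060270 on the plus strand for Lep. Capitals mark matches to TTGCNNAA, a core of the sites of C/EBP proteins, which drive adipocyte differentiation. Each is written 5′ to 3′ on the gene's own strand.
Adipoq: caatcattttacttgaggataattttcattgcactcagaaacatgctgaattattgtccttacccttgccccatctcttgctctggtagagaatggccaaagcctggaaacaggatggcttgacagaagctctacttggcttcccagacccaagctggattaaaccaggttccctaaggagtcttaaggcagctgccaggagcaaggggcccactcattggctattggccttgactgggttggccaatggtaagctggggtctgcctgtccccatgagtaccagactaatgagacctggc
Cfd: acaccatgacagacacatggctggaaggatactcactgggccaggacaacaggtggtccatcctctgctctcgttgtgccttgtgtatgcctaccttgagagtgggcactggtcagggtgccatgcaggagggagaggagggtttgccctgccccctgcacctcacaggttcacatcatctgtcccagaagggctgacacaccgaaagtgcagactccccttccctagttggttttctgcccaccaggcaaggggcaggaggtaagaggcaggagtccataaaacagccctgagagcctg
Plin1: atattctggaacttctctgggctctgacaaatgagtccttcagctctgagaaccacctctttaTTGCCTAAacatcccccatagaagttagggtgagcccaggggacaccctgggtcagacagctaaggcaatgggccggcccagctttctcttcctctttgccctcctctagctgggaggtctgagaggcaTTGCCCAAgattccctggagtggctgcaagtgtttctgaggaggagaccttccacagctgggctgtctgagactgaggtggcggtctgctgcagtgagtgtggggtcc
Lep: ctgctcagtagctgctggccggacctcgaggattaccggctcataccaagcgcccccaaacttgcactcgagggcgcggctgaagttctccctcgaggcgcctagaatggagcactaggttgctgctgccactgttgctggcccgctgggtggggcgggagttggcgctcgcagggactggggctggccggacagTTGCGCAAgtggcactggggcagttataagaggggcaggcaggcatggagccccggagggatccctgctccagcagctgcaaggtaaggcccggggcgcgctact
On both strands, TTGCNNAA was found in 10.8% of 32851 mouse promoters of this length. Among the 7 genes it was found in Plin1, at 187 and 58 bases before the start, in Lep, at 55 bases before the start in a form that reads the same on both strands, and in 1 of 2 Cidec promoters, at 198 bases before the start. AGGTCA, the hexamer bound by nuclear receptors, was found in 16.3% of promoters and, of these genes, in Ucp1. The PPAR response element, a pair of these hexamers in 1 direction with any 1 base (N) between them, was found in 0.0396% of promoters and in none of the 7 genes. TATAAA was found in 13.6% of promoters and in none of the 7. A match is a description of the letters, and its absence says only that they do not stand in this window.

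In the GRCm38 annotation, GENCODE release M21, all 7 are protein-coding genes that overlap no other annotated gene. Adipoq lies at chr16:23146536-23158028 on the plus strand, Cfd at chr10:79890853-79892655 on the plus strand, and Plin1 at chr7:79720218-79732903 on the minus strand. Cidec lies at chr6:113424634-113435760 on the minus strand, Lep at chr6:29060220-29073877 on the plus strand, Retn at chr8:3655770-3660110 on the plus strand and Ucp1 at chr8:83290352-83298452 on the plus strand. The values below are read counts over the exons of each gene.

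Libraries held 22204349 to 32566240 counts. The 5 heart muscle genes Myh6, Myl2, Myl3, Tnnt2 and Actc1 summed to 54587 to 63674 CPM (counts scaled to library size), so the labelled tissue was borne out by its markers in all 12. A total of 3 counts, the number below which a gene is treated here as not detected, corresponds to 0.113 to 0.142 CPM. Together the 7 adipocyte genes gave 3733 counts in the 12 libraries. Of these, 2630 (70.5%) were in female exercised 2, 395 in female sedentary 1, 307 in female sedentary 2, 185 in female exercised 1 and 75 in male exercised 1. The other 7 libraries had 15 to 24 counts each. Fold changes of the adipocyte genes in comparisons that include female exercised 2 are therefore also given without it for the edgeR fits without a covariate. Intervals and limits cover counting error only. With bulk RNA, fewer cells of a type and less RNA per cell cannot be told apart.

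**Figure D1:**
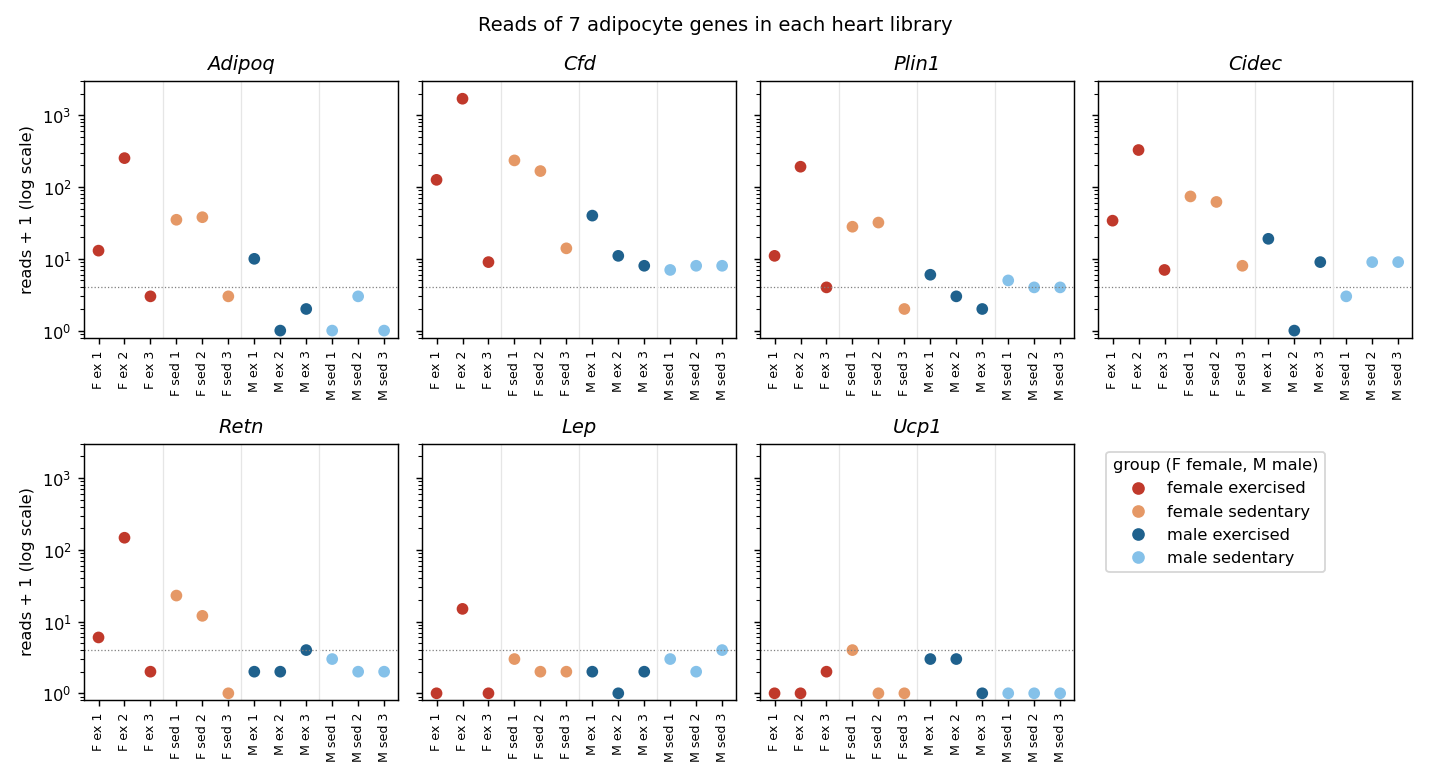
Counts plus 1 on a log axis for each of the 7 adipocyte genes, with 1 point per library (F female, M male, ex exercised, sed sedentary), and a dotted line at 3 counts. In 6 of the 7 panels female exercised 2 is the highest point, at 14 counts for Lep and 1700 for Cfd, and in the Ucp1 panel no library exceeds 3 counts.

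Among the adipokines, Adipoq had 12, 252 and 2 counts in exercised females 1, 2 and 3, and 34, 37 and 2 counts in sedentary females 1, 2 and 3. It had 9, 0 and 1 counts in exercised males, and 0, 2 and 0 counts in sedentary males. Female exercised 2 stood at 10.1 CPM, 6.93 times the next library, and 7 of the 12 libraries had fewer than 3 counts. Both female groups overlapped each other, and each also held a library at 2 counts, as low as the libraries of sedentary males.

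Cfd was the most abundant of the 7. It had 125, 1700 and 8 counts in exercised females, and 234, 166 and 13 counts in sedentary females. It had 39, 10 and 7 counts in exercised males, and 6, 7 and 7 counts in sedentary males. This was the only one of the genes with 3 or more counts in all 12 libraries, and the same 5 libraries led as for Adipoq, with female sedentary 1 and 2 in the opposite order: female exercised 2 at 68.0 CPM, then female sedentary 1 at 8.82, female sedentary 2 at 6.52, female exercised 1 at 5.20 and male exercised 1 at 1.57 CPM. The remaining 7 libraries lay between 0.226 and 0.575 CPM, and their 95% Poisson intervals overlap. These 7 thus held a low level of Cfd rather than none, in all 4 groups.

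Retn had 5, 146 and 1 counts in exercised females, and 22, 11 and 0 counts in sedentary females. It had 1, 1 and 3 counts in exercised males, and 2, 1 and 1 counts in sedentary males. In mice resistin is a product of adipocytes, and the 4 libraries with the most Retn were the 4 female libraries with the most Adipoq, whereas male exercised 1, with 9 Adipoq counts, had 1 Retn count. Lep had 0, 14 and 0 counts in exercised females, and 2, 1 and 1 counts in sedentary females. It had 1, 0 and 1 counts in exercised males, and 2, 1 and 3 counts in sedentary males. Leptin mRNA was thus above 3 counts in 1 library only, female exercised 2, at 0.560 CPM with a 95% Poisson interval of 0.306 to 0.939.

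The droplet proteins followed the same libraries. Plin1 had 10, 191 and 3 counts in exercised females, and 27, 31 and 1 counts in sedentary females. It had 5, 2 and 1 counts in exercised males, and 4, 3 and 3 counts in sedentary males. Female exercised 2 stood at 7.64 CPM, 6.27 times the next library. Cidec had 33, 327 and 6 counts in exercised females, and 73, 61 and 7 counts in sedentary females. It had 18, 0 and 8 counts in exercised males, and 2, 8 and 8 counts in sedentary males. Its excess in female exercised 2, at 13.1 CPM, was 4.76 times the next library, and male exercised 1 had the most counts among the males.

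Ucp1, the brown fat gene, had 0, 0 and 1 counts in exercised females, and 3, 0 and 0 counts in sedentary females. It had 2, 2 and 0 counts in exercised males, and no count in the 3 sedentary males. The 8 counts of the series lay in 4 libraries. In female exercised 2, where the other 6 genes gave 2630 counts, a count of 0 allows up to 0.120 CPM of Ucp1 by the limit of 3 counts, and 0.148 CPM by the upper end of the 95% Poisson interval.

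Per kilobase of exon, the levels in female exercised 2 ran in the order Cfd at 73.7, Adipoq at 7.30, Cidec at 7.05, Retn at 3.70, Plin1 at 1.64 and Lep at 0.167 CPM per kb. Cfd made up 64.6% of the adipocyte counts of that library (exact 95% interval 62.8 to 66.5%), Cidec 12.4% (11.2 to 13.8%), Adipoq 9.58% (8.48 to 10.8%), Plin1 7.26% (6.30 to 8.32%) and Retn 5.55% (4.71 to 6.496%). Adipoq made up 8.61% in female sedentary 1 (6.03 to 11.8%), 12.1% in female sedentary 2 (8.63 to 16.2%), 6.49% in female exercised 1 (3.396 to 11.1%) and 12% in male exercised 1 (5.64 to 21.6%). These intervals for Adipoq overlap that of female exercised 2. The makeup was not identical in all 5 libraries. Cfd was 54.1% of the adipocyte counts in female sedentary 2 (48.3 to 59.7%), below the interval of female exercised 2, and Cidec was 19.9% there (15.6 to 24.8%) and 18.5% in female sedentary 1 (14.8 to 22.7%), above it.

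Across the 12 libraries, the 10 pairs among Adipoq, Cfd, Plin1, Cidec and Retn had Pearson r of 0.913 to 0.989 on log2(CPM + 0.5). Spearman rho was 0.50 to 0.838. Over all 21 pairs of the 7 genes, the largest Benjamini-Hochberg adjusted permutation p among these 10 was 0.00042 for r and 0.213 for rho, and for Adipoq with Retn rho was 0.50 (permutation p = 0.102 before adjustment). Without the 2 libraries farthest from the median, r was 0.809 to 0.962 with adjusted permutation p of at most 0.0319, and rho was 0.141 to 0.730. Adipoq had 0 to 2 counts in 7 libraries, whose order is set by single reads. Lep had r of 0.683 to 0.879 with the 5 genes over 12 libraries and of −0.302 to 0.131 without the 2 farthest, so its relation rested on those libraries. Ucp1 had r of −0.242 to 0.0486 with the other 6 genes. As deviations from group means, with female exercised 2 kept, r was 0.906 to 0.992 for the 10 pairs and 0.784 to 0.929 for Lep with the 5 genes. The libraries share depth and scaling, and the 5 genes were grouped after their values were seen. The 12 libraries also fell into clusters, with female exercised 2 alone and 7 near 0. The values of r and their p thus rest on the same few libraries and are given as description only.

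**Figure D2:**
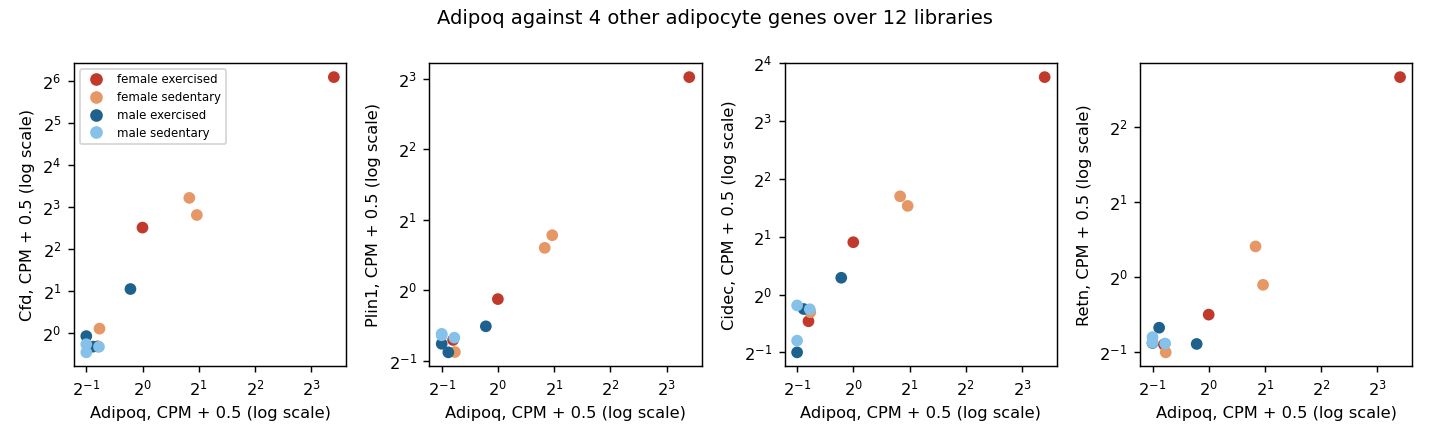
Levels of Cfd, Plin1, Cidec and Retn against Adipoq in 12 libraries, as CPM plus 0.5 on log axes, coloured by group. Female exercised 2 lies alone at the upper right at 10.1 CPM of Adipoq, 2 sedentary females at 1.28 and 1.45 CPM, female exercised 1 at 0.4996 and male exercised 1 at 0.362 CPM lie on the same slope, and the other 7 crowd at the lower left.

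Exercise was compared with cage life in females with edgeR's quasi-likelihood test on all 16213 genes that passed a filter on low counts. Adipoq, Cfd, Plin1 and Cidec passed the filter and Retn, Lep and Ucp1 did not. The 4 passed through the libraries in which they are high, so no summary over them is read. None of the 4 was called, against 0% of all genes at an adjusted p of 0.05. At an unadjusted p under 0.05, 0 of the 4 and 637 of all genes fell below the threshold, DESeq2 called 0 of the 7 genes and 0.00301% of all genes (1 gene), and limma's voom with sample weights called 0 of 4 and 0 in all.

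Cfd averaged 24.5 ± 37.7 CPM in exercised females and 5.30 ± 4.25 CPM in sedentary females (SD, n = 3 each). The log2 fold change was 2.19 ± 1.41 (SE, edgeR adjusted p = 1.0). Adipoq averaged 3.55 ± 5.66 CPM in exercised females and 0.941 ± 0.743 CPM in sedentary females (SD, n = 3 each), a log2 fold change of 1.89 ± 1.39. Plin1 averaged 2.72 ± 4.26 CPM in exercised females and 0.760 ± 0.628 CPM in sedentary females (SD, n = 3 each), a log2 fold change of 1.81 ± 1.24. Cidec averaged 4.89 ± 7.11 CPM in exercised females and 1.82 ± 1.32 CPM in sedentary females (SD, n = 3 each), a log2 fold change of 1.41 ± 1.23. In each case the SD of the exercised group exceeded its mean. Without female exercised 2 all 4 directions turned: the log2 fold changes were −1.74 ± 1.13 for Adipoq, −0.97 ± 1.19 for Cfd, −1.55 ± 0.88 for Plin1 and −1.21 ± 1.07 for Cidec, again with none called.

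**Figure D3:**
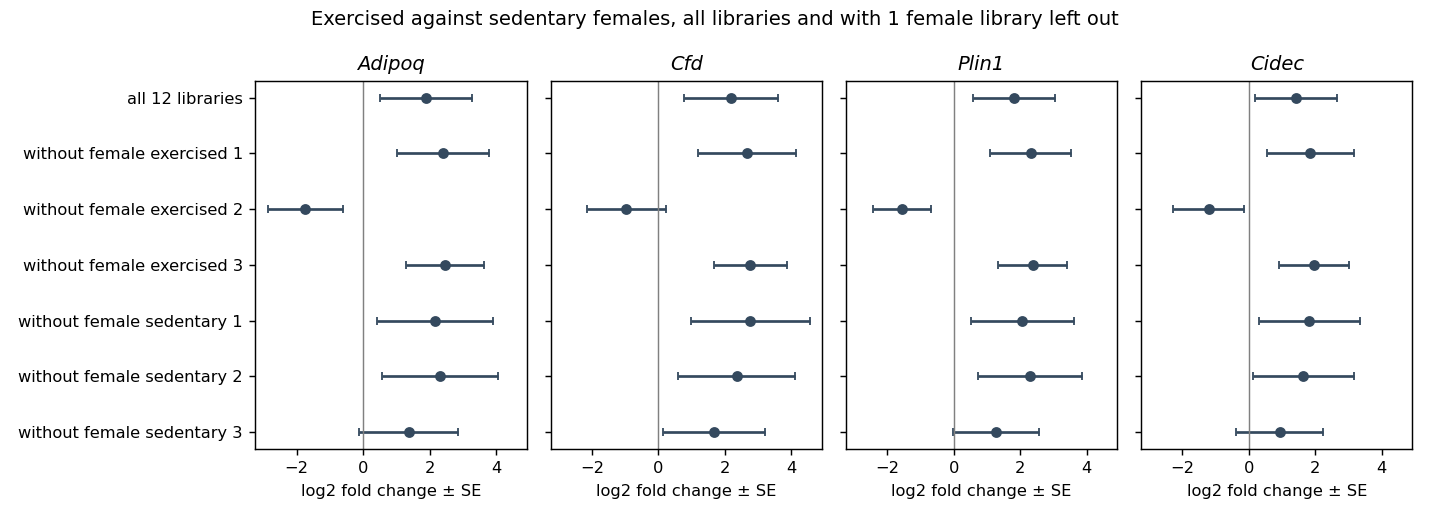
Log2 fold change of exercised over sedentary females, with its SE as bars, for the 4 tested adipocyte genes in the fit of all 12 libraries and in 6 fits that each leave out 1 female library. The points lie right of 0 in every fit but the one without female exercised 2, where they lie between −1.74 and −0.97.

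In males, 0 of the 4 tested adipocyte genes and 0% of all genes were called for exercise by edgeR, with 0 of 4 and 1271 of all at an unadjusted p under 0.05, 24 genes (0.409%) by DESeq2 and 0 by voom. DESeq2 gave no adjusted p to any of the 7 here. Cfd averaged 0.772 ± 0.693 CPM in exercised males and 0.284 ± 0.0531 CPM in sedentary males (SD, n = 3 each). Its log2 fold change was 1.47 ± 2.81 (SE, edgeR adjusted p = 0.919), and 0.40 without male exercised 1. Adipoq had 10 counts in exercised males and 2 in sedentary males, a ratio of 5.05 with a counting interval of 1.08 to 47.4. Of the 10 counts, 9 were in male exercised 1, and without that library the log2 fold change was −0.30. Plin1 had 8 counts in exercised males and 10 in sedentary males, and Cidec 26 and 18.

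The exercise effects of the sexes were compared as females minus males. The difference in log2 fold change was −0.24 ± 2.53 for Adipoq, 0.72 ± 3.41 for Cfd, 2.11 ± 2.68 for Plin1 and 0.91 ± 2.42 for Cidec (SE, edgeR adjusted p of 0.955 to 0.996). None was called, against 0% of all genes, with 0 of 4 and 769 of all at an unadjusted p under 0.05, 12 genes (0.355%) by DESeq2 and 0 by voom. Without female exercised 2 the differences were −3.86, −2.42, −1.25 and −1.70, with none called.

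Retn, Lep and Ucp1 were compared by exact two-sided permutation over libraries, in which 3 against 3 cannot go below p = 0.1 and both sexes together cannot go below 0.005. Retn was 0.65 higher on the log2(CPM + 0.5) scale in exercised than in sedentary females (exact permutation p = 0.8), 0.04 higher in exercised than in sedentary males (p = 0.9, exact) and 0.35 higher over both sexes (p = 0.745, exact). Without female exercised 2 the difference over both sexes was −0.21. For Lep the difference over both sexes was 0.03 (exact permutation p = 0.995). Without female exercised 2 it was −0.15 (exact permutation p = 0.01), from counts of 0 to 3 in each remaining library. Ucp1 differed by −0.06 in females, 0.15 in males and 0.04 over both sexes (exact permutation p of 1, 0.4 and 0.56).

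Between the sexes, the female libraries held most of the adipocyte counts in both conditions. Among sedentary hearts, Adipoq had 73 counts in females and 2 in males, a ratio of 34.9 with a counting interval of 9.32 to 293. Of the 73, 34 were in female sedentary 1 and 37 in female sedentary 2. Female sedentary 3 had 2, as many as male sedentary 2, and the interval does not cover this spread between libraries. Cfd averaged 5.30 ± 4.25 CPM in sedentary females and 0.284 ± 0.0531 CPM in sedentary males (SD, n = 3 each), and all 3 females were above all 3 males, at 0.575 CPM or more against 0.331 CPM or less. The log2 fold changes of females over males were 4.85 ± 2.57 for Adipoq, 4.23 ± 2.18 for Cfd, 2.42 ± 1.71 for Plin1 and 2.82 ± 1.65 for Cidec (SE, edgeR adjusted p of 0.349 to 0.499). With 1 library left out in turn, Adipoq ran from 4.27 to 7.55, Cfd from 3.66 to 4.75, Plin1 from 1.94 to 2.95 and Cidec from 2.35 to 3.31. Each of these fits kept female sedentary 1 or 2, and values without both are given below. The 7.55 came without male sedentary 2, which leaves sedentary males with no Adipoq count, so it depends on the fit and is no bound. None of the 4 was called, against 2.21% of all genes, and none was called by DESeq2, which called 6.29% of genes, or by voom. At an unadjusted p under 0.05 there were 0 of 4 and 2981 of all genes by edgeR, 2 of 7 and 2984 of all by DESeq2, and 0 of 4 and 3127 of all by voom.

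Among exercised hearts, Cfd averaged 24.5 ± 37.7 CPM in females and 0.772 ± 0.693 CPM in males (SD, n = 3 each), and the female library at 0.301 CPM lay below 2 of the 3 males. The log2 fold changes of females over males were 4.95 ± 1.77 for Cfd, 4.61 ± 1.81 for Adipoq, 4.53 ± 1.63 for Plin1 and 3.73 ± 1.498 for Cidec (SE, edgeR adjusted p of 0.396 to 0.456). None of the 4 was called by edgeR, against 0.16% of all genes, and all 4 had an unadjusted p of 0.0211 to 0.0353, as 1595 of the 16213 genes had one under 0.05. DESeq2 called Cfd, at a log2 fold change of 4.98 (adjusted p = 0.0396), against 1.15% of the genes to which it gave an adjusted p, and voom called none of the 4. Without female exercised 2 the log2 fold changes were 1.80 for Cfd, 0.99 for Adipoq, 1.17 for Plin1 and 1.12 for Cidec, and without male exercised 1 they were 6.02, 7.04, 5.27 and 4.77, with none called by edgeR in either fit. The sex comparisons share their libraries with the exercise comparisons.

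Atrial and red cell genes were also high in some of the same libraries. Of the 5 atrial genes, 4 were highest in female exercised 2, and their sum was 23.8, 303 and 7.004 CPM in exercised females, 202, 76.9 and 7.999 CPM in sedentary females, 3.38 to 6.35 CPM in exercised males and 3.39 to 5.96 CPM in sedentary males. Myl7, the atrial myosin light chain, stood at 107 CPM in female exercised 2 and at 0.415 CPM in male sedentary 1. Bmp10, another atrial gene, had 8 counts in the 12 libraries together. It stood at 0.0800 CPM in female exercised 2 and at no more than 0.151 CPM in any library. The samples are described as whole hearts, and how much atrium each library held was not measured. The 7 red cell genes were highest in female sedentary 1, at 3630 CPM, and female sedentary 2, at 1748 CPM, then female exercised 2, at 293 CPM, and the other 9 libraries had 8.26 to 86.2 CPM. Their order was thus not that of the fat cell genes. Slc4a1, a membrane protein of the red cell, had 17 counts in the 12 libraries together and at most 0.354 CPM in any. Of these counts, 0 were in female exercised 2.

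Lymphocyte genes summed to 11.04 CPM in female exercised 2 and to 3.31 to 6.23 CPM elsewhere. Ms4a1, Cd79a, Cd79b and Ighm, which are genes of B cells, were all highest in it. Ms4a1 had 21 counts there, or 0.840 CPM, and at most 0.151 CPM elsewhere. The T-cell genes Cd3e, Cd3d and Cd3g had 1, 1 and 3 counts in the same library. The 10 mesothelial genes, which mark the lining of the heart's surface and of the pericardium, were highest in female sedentary 3, at 73.0 CPM, where the adipocyte genes summed to 1.06 CPM. Their sum was 34.4 CPM in female exercised 2, and the other 10 libraries had 20.2 to 38.1 CPM.

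**Figure D4:**
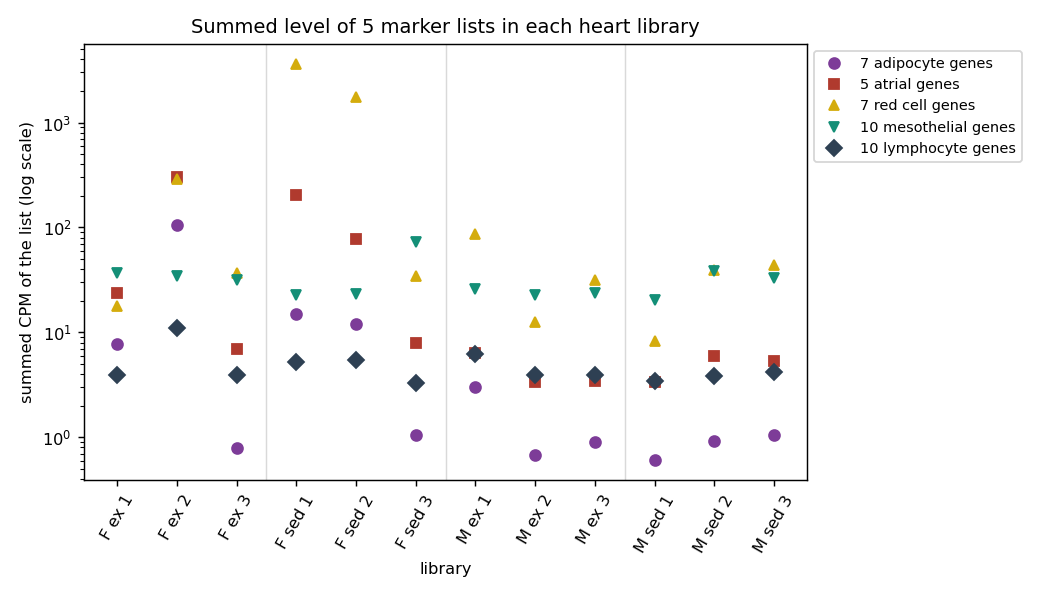
Summed CPM of 5 marker lists in each library, on a log axis, with exercised left of sedentary libraries in each sex. Adipocyte genes reach 105 CPM and atrial genes 303 CPM in female exercised 2, both lists are next highest in female sedentary 1 and 2, red cell genes peak at 3630 CPM in female sedentary 1, and mesothelial genes peak at 73.0 CPM in female sedentary 3.

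In fits with the mean level of the atrial genes as a covariate, none of the 4 adipocyte genes was called in any of the 5 contrasts. Among sedentary hearts, Adipoq and Cfd then had log2 fold changes of 0.88 ± 1.33 and 0.31 ± 1.05 for females over males, and those of Plin1 and Cidec turned to −1.37 ± 0.79 and −0.34 ± 0.98 (SE). In exercised females over sedentary females the 4 values stayed between 1.03 and 1.68. A fit of 9 libraries left out female exercised 2 and female sedentary 1 and 2, which held the most atrial transcripts. These 3 also held the most adipocyte transcripts, so lower values follow from the cut itself. Female sedentary 3 was then the only sedentary female library. Its log2 fold changes over sedentary males were 1.49 for Adipoq, 1.01 for Cfd and 0.26 for Cidec, and Plin1 did not pass the filter. Adipoq had 2 counts in that library and 2 in the sedentary males together. The part of atrial, blood and lymphocyte tissue in the adipocyte values was not tested.

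A further 20 genes known from adipocytes were examined beside the 7. In female exercised 2, 8 of the 20 stood at more than 2 times the median of the other 11 libraries, against 1.37% of all genes tested. The 1.37% covers only genes that passed the filter. Slc7a10, Acvr1c and Adrb3, among the 8, did not, and their medians over the other 11 libraries were 0.0442 to 0.0804 CPM. The library was picked for its high adipocyte genes, so no test is read from these shares. Car3, carbonic anhydrase 3, had 3.83, 74.2 and 0.678 CPM in exercised females, and 10.5, 9.78 and 1.77 CPM in sedentary females. It had 3.38, 0.450 and 0.809 CPM in exercised males, and 0.792, 1.56 and 1.46 CPM in sedentary males, so the same 5 libraries led as for Adipoq. Pck1, which makes the glycerol backbone of triglyceride in fat cells, had 0.749, 4.44 and 0.0377 CPM in exercised females, and 1.39, 1.02 and 0.0442 CPM in sedentary females. Rbp4, a retinol carrier released by fat, stood at 1.40 CPM in female exercised 2 and 0.0377 to 0.716 CPM elsewhere. Slc7a10, a neutral amino acid transporter of white fat, had 31 counts in female exercised 2, or 1.24 CPM, and at most 0.188 CPM elsewhere. Nnat at 1.80 CPM against 0.301 to 0.756, Acvr1c at 0.3599 against at most 0.301, Adrb3, the fat cell beta-adrenergic receptor, at 0.400 against at most 0.565, and Pnpla3 at 0.760 against 0.0900 to 0.490 completed the 8.

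The other 12 of these genes lay between 0.692 and 1.73 times the median. They included Pparg and Cebpa, transcription factors of adipocyte differentiation, at 11.4 and 9.76 CPM in female exercised 2, and the lipase Lipe at 34.2 CPM, against 23.4 to 45.1 CPM elsewhere. Plin4, a perilipin also present in heart muscle, stood at 344 CPM there and at 229 to 372 CPM elsewhere. Of the 20, 17 were tested. None was called for exercise in either sex or for the difference, against 0% of all genes. Some of the 17, such as Pck1, passed the filter through the libraries in which they are high, so no median over them is read. Gpd1, glycerol-3-phosphate dehydrogenase, was the 1 gene of the 17 called in a sex comparison, among sedentary hearts, where 2.21% of all genes were called. Sedentary females were below sedentary males at a log2 fold change of −0.41 ± 0.09 (SE, edgeR adjusted p = 0.0394).

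Of 20 lipid genes that heart muscle also uses, 2 (10%) stood at more than 2 times the median in female exercised 2, against 1.37% of all genes tested, and 4 were highest there, Scd1, Fasn, Acaca and Bscl2, against 6.54% of all genes tested. Scd1, the stearoyl-CoA desaturase, was at 58.5 CPM there and 9.23 to 16.6 CPM elsewhere, and Fasn, the fatty acid synthase, was at 73.9 CPM there and 18.7 to 36.5 CPM elsewhere. In female sedentary 1 and 2, the next libraries for Adipoq, Scd1 was at 14.4 and 16.6 CPM and Fasn at 28.8 and 32.97 CPM. Lpl, the lipoprotein lipase, was at 4518 CPM in female exercised 2 against 4349 to 5370 CPM, the fatty acid carrier Cd36 at 1553 against 1341 to 2189 CPM, and Dgat2, which makes triglyceride, at 444 against 336 to 453 CPM. Fabp4, often used to mark fat cells and present in heart capillaries too, was at 382 against 309 to 465 CPM. All 20 were tested and none was called in any of the 5 contrasts, where 0% to 2.21% of all genes were called.

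**Figure D5:**
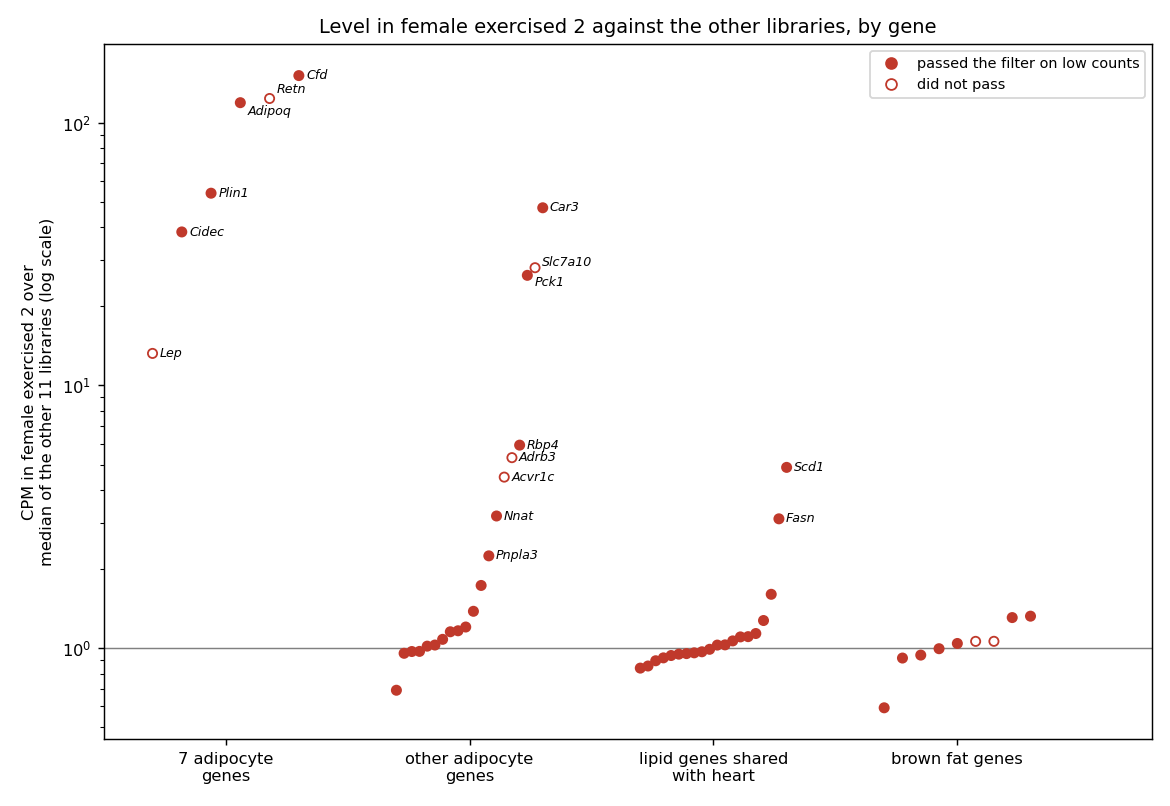
Level in female exercised 2 over the median of the other 11 libraries, on a log axis, with 1 point per gene in 4 lists, filled where the gene passed the filter on low counts, and named above 2. Medians of some low genes rest on fewer than 3 counts, and genes with a ratio of 0 or a median of 0, Ucp1 among them, are not drawn. But for Scd1 at 4.88 and Fasn at 3.11, the 20 genes shared with heart run from 0.840 (Gpam) to 1.60 (Acaca). The brown fat genes that are drawn run from 0.593 (S100b) to 1.32 (Dio2).

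Of 12 further genes of brown and beige fat, 10 had a median above 0 over the other 11 libraries. None of the 10 stood at more than 2 times that median in female exercised 2. Elovl3, a fatty acid elongase, and Otop1, Zic1 and Lhx8 had 1, 2, 0 and 0 counts there and at most 0.236 CPM in any library. Cidea, a droplet protein of brown fat, was at 23.8 CPM in female exercised 2, within the range of 19.0 to 28.7 CPM of the other libraries. Prdm16, a regulator of the brown fat programme, was at 12.3 CPM there and 10.4 to 23.7 CPM in the others, and Ebf2 and Dio2 at 10.4 and 1.68 CPM there. Kcnk3, Gk and S100b stood at 234, 35.4 and 0.480 CPM in female exercised 2, each below its median over the other libraries. Of the 12, 7 were tested, and none was called in any contrast, where 0% to 2.21% of all genes were called.

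The receptors and the pathways the adipokines act on were examined in 14 genes. Of these, 13 were tested and none was called in any contrast, where 0% to 2.21% of all genes were called. In female exercised 2, none stood at more than 2 times the median of the others. Socs3, which damps leptin and cytokine signals, ranged most, at 172 CPM in female exercised 2 and 19.6 to 339 CPM elsewhere. Adipor1, an adiponectin receptor, was at 211 CPM there against 189 to 219 CPM elsewhere. Complement C3, the protein at the centre of the pathway that Cfd serves, was at 209 CPM there against 168 to 258 CPM.

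The 8 genes outside the 7 whose levels went most closely with Adipoq over the 12 libraries, and over the 10 left without female exercised 2 and female sedentary 2, were Pck1, Car3, Myl4, Sln, Cyp2e1, Myl7, Dkk3 and Stmn2. Pearson r was 0.8501 to 0.977 over 12 libraries and 0.882 to 0.946 over 10, on log2(CPM + 0.5). These were chosen from all genes tested for that likeness, so no test is given. Myl4, Sln, Myl7 and Dkk3 are the atrial genes above. Cyp2e1, a cytochrome P450, had 3.62, 20.1 and 0.0753 CPM in exercised females, and 5.20, 4.40 and 0.177 CPM in sedentary females. It had 2.17, 0.315 and 0.256 CPM in exercised males, and 0.264, 0.169 and 0.8503 CPM in sedentary males. Stmn2, a microtubule-binding protein, ranged less, at 9.52 CPM in female exercised 2 and 5.05 to 8.40 CPM elsewhere.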

How the data were processed

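RNA of whole hearts was sequenced in bulk in 12 libraries, with nothing in the labels to say that each is a separate animal, so p-values describe how libraries vary. The authors deposited raw counts of reads per gene: per the submitters' processing notes, the tools were Trimmomatic 0.36, STAR 2.5.2b and featureCounts of Subread 1.5.2, with GRCm38. The sources used here do not give the annotation release, the strand setting or a batch. The 27.3% of counts in female sedentary 2 that lay in mitochondrial rows, which were 0 in the other libraries, were left out by the filter.

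The test was that of edgeR 4.0.16, run in R 4.3.3 (filterByExpr, trimmed mean of M-values, robust quasi-likelihood test, 1 group-means model of all 12 libraries with 8 residual degrees of freedom, Benjamini-Hochberg adjustment over all 16213 genes at 0.05). Adjusted p-values and SE in the text come from these fits unless another tool is named. DESeq2 1.42.0 and limma 3.58.1 (voom) were alternatives. CPM are counts scaled to the effective library size, with SD over libraries. Relations between genes used 100000 permutations, and genes under the filter an exact permutation test on log2(CPM + 0.5). On simulated data for exercise in females with 16054 genes, 67 of 100 genes changed by a log2 of 1 and 87 of 100 changed by a log2 of 2 were recovered, with 12 false calls. The changed genes were drawn at random, and the simulated libraries of a group shared 1 mean per gene. This recovery is thus not that of the adipocyte genes, whose SE for exercise in females were 1.23 to 1.41.

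The 7 genes and the 15 gene lists were chosen with earlier results of these data known. All 7 genes were named in every library, and so were tested members of the adipocyte, brown fat and family lists as far as room allowed, the most abundant members of other lists, and the 8 genes most like Adipoq. Scd1, Fasn, Fabp4, Socs3, Bmp10, Slc4a1 and the B-cell and T-cell genes were named after their values were seen. Some list members are not reported here. Alternatives were another scaling, filters, tools, the groups compared alone, covariates and each library left out. Those added after seeing the data were the 9 libraries without female exercised 2 and female sedentary 1 and 2, and edgeR's bias-adjusted test. Lists of nerve, skeletal muscle and airway genes were also summed: nerve genes ran from 86.3 to 103 CPM, skeletal muscle genes from 2.34 to 3.92 CPM and airway genes from 0.170 to 0.707 CPM but for 6.52 CPM in female sedentary 1. Stromal genes of fat ran from 247 to 400 CPM.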

Additional observations from a re-analysis of the deposited data

Results flagged for a closer look

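The rule used here compares the gap of the highest or lowest library with the range of the 6 libraries of its sex. Chance would set about 1 in 20 groups apart by it if the values were normally distributed. CPM from few counts are skewed, and the 7 genes were chosen with earlier results known, so that rate does not hold here. Female exercised 2 stood apart from the other 5 females in 6 of the 7 genes: Adipoq at 10.08 CPM, Cfd at 67.99 CPM, Plin1 at 7.639 CPM, Cidec at 13.08 CPM, Retn at 5.839 CPM and Lep at 0.5599 CPM. For Lep this was 14 counts. Male exercised 1 stood apart from the other 5 males in Adipoq at 0.3617 CPM, or 9 counts, and in Cfd at 1.567 CPM, or 39 counts. Female sedentary 1 stood apart from the other 5 females in Ucp1 at 0.113 CPM, which is 3 counts.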

How the results depend on the processing

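No paired analysis was possible because replicate numbers come from accession order and not from the labels. Wherever a fit gave the adipocyte genes an adjusted p, none was called except Cfd in exercised females over exercised males, the 1 call that DESeq2 made among them (log2 fold change 4.98). Retn, Lep and Ucp1 did not pass the filter of most fits, and DESeq2 gave none of the 7 an adjusted p for exercise in males or for the difference. Over all genes, DESeq2 called 1, 24, 12, 876 and 167 genes for exercise in females, exercise in males, their difference, sex in sedentary and sex in exercised hearts, against 0, 0, 0, 358 and 26 by edgeR. For sex in sedentary hearts, 188 genes were called with the adipocyte level as a covariate, 98 with the atrial level and 14 in the 9 libraries. The 9 libraries held 1 sedentary female library only, female sedentary 3. With all other libraries kept, leaving out female sedentary 1, 2 or 3 gave 106, 97 and 131 calls. How much of the fall in the 9 libraries came from fewer libraries was not tested. For sex in exercised hearts, 48 were called with no filter, the mitochondrial rows left out and the bias-adjusted test together, and 15 in a fit of only the groups compared. With 1 library left out in turn, the counts ran from 0 to 1 for exercise in females and for the difference, 68 (without male sedentary 3) to 462 for sex in sedentary hearts and 17 (without male exercised 3) to 55 (without male exercised 1) for sex in exercised hearts.

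Directions turned under voom for the difference of exercise effects in Cfd (−0.83) and Cidec (−0.20), with the atrial covariate for sex in sedentary hearts in Plin1 (−1.37) and Cidec (−0.34) and for sex in exercised hearts in Adipoq (−0.13), and with a pseudocount of 0.1 for Lep over both sexes (−0.11). With 1 library left out, exercise in females ran from −1.74 to 2.46 for Adipoq, −0.97 to 2.77 for Cfd, −1.55 to 2.37 for Plin1 and −1.21 to 1.97 for Cidec. Exercise in males ran from −0.30 to 4.83 for Adipoq, −1.04 to 0.073 for Plin1 and −0.54 to 1.05 for Cidec. The difference ran from −3.86 to 2.18 for Adipoq, −2.42 to 1.79 for Cfd, −1.25 to 2.84 for Plin1 and −1.70 to 1.95 for Cidec. Retn ran from −0.47 to 1.31 in females, −0.032 to 0.076 in males and −0.21 to 0.68 over both sexes, Lep from −0.14 to 0.40 in females and −0.15 to 0.12 over both, and Ucp1 from −0.11 to 0.035 in females. The turns in females came without female exercised 2 (Ucp1: without female sedentary 1), those in males without male exercised 1 (Adipoq, Cidec) or 3 (Plin1, Retn). The cause was not tested. Depth limits Ucp1, Lep and Retn, which were at or under 3 counts in most libraries.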

Other observations

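Relatives of the 7 genes in the same protein families were measured in 13 genes. Of these, 11 were tested and none was called in any of the 5 contrasts, where 0% to 2.21% of all genes were called. Retnla, a resistin-like protein of macrophages, stood at 6.48 CPM in female exercised 2 and at 1.40 to 4.14 CPM elsewhere, and its relative Retnlb had no count in any library. Ucp3, the uncoupling protein of muscle, stood at 117 CPM in male exercised 1 and at 25.3 to 60.6 CPM in the other 11 libraries. Ucp2 stood at 51.3 CPM in female exercised 2 and at 31.7 to 75.1 CPM elsewhere. Plin2, Plin3 and Plin5, the perilipins of heart muscle, stood at 56.8, 211 and 127 CPM in female exercised 2, each below the median of the other libraries. C1qtnf9, a relative of adiponectin, stood at 40.3 CPM there and at 41.4 to 53.1 CPM elsewhere.

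Of 8 stromal genes of fat, 7 were tested, and 1 was highest in female exercised 2, against 6.54% of all genes tested. It was Pi16, a marker of fibroblast progenitors, at 85.1 CPM against 22.9 to 78.7 CPM elsewhere. The 8 summed to 383 CPM there and to 247 to 400 CPM over all libraries, where the 7 adipocyte genes reached at most 105 CPM. An amount of that size lies within the range of the stromal sum, so this list says little about added fat.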
